A study of Mus musculus with 17 samples.

Results

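The genes described here are 10 immediate early genes outside the Fos and Jun families, namely Egr1, Egr2, Egr3, Nr4a1, Nr4a2, Nr4a3, Ier2, Ier3, Dusp1 and Btg2. They were chosen by name, with measured values in view, since Egr2 was among the strongest changes in Pelo -/- Lgr5 cells. All 10 were found by symbol among the 48820 genes of the deposited counts, and all 10 were among the 30405 genes that passed the filter on low counts. The study profiled sorted stem cells of mouse epidermis by RNA sequencing and asked how loss of Pelo, whose protein helps rescue ribosomes that have stalled during translation, changes them. The mice were C57BL/6, were 3 months old, carried an EGFP-CreERT2 allele at Lrig1, Lgr6 or Lgr5, and had all received 4-OHT, the agent that switches the recombinase on. Pelo -/- denotes animals with a floxed pair (Pelo fl/fl), and WT denotes control animals that also carried Cre and 1 floxed allele (Pelo fl/+). The groups were Pelo -/- Lrig1 (3 libraries) and WT Lrig1 (2), Pelo -/- Lgr6 (3) and WT Lgr6 (3), and Pelo -/- Lgr5 (3) and WT Lgr5 (3), each library being made from 1000 GFP-positive cells. Cre and GFP come from the same allele, so deletion and sorting both depend on the cells in which Lrig1, Lgr6 or Lgr5 is active. The time from dissociation of the skin to lysis was not given in these sources.

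Immediate early genes are transcribed within minutes of a signal, without new protein synthesis, from promoters on which transcription factors such as SRF and CREB are already waiting. Growth factors, stress, wounding and the dissociation of tissue are all known to induce them, mostly through MAP kinases, and their messenger RNAs are short lived. EGR proteins are zinc finger transcription factors and NR4A proteins are orphan nuclear receptors, while DUSP1 is a phosphatase that switches MAP kinases off again. BTG2 restrains proliferation and brings deadenylases to messenger RNA, IER3 modulates survival and ERK signalling, and IER2 is a small nuclear protein of less defined role. In the hair follicle, Egr2 (Krox20) is known as a marker of cells that form the hair shaft.

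Libraries held 9647507 to 28098841 counts, with 9647507 to 17219054 in the 6 Lgr5 libraries. A group of 13 predicted genes that lie in satellite-like repeats, Gm10800 among them, took 1.72%, 6.45% and 9.42% of counts in Pelo -/- Lgr5, 10.2%, 4.08% and 25.4% in WT Lgr5, and 0.237% to 2.83% in the other 11. Lgr5 cells could be told by their markers, since Lgr5 itself stood at 276 to 570.0 CPM in their libraries and at most at 29.4 CPM in the others. Lrig1 transcripts did not mark their own sort, with 7.42 to 41.7 CPM in Lrig1 libraries, 39.3 to 60.02 in Lgr6 and 10.09 to 18.1 in Lgr5. Pelo -/- Lrig1 replicates 2 and 3, at 7.42 and 11.6 CPM of Lrig1, lay no higher than the highest Lgr5 library. Lgr6 transcripts overlapped between the sorts, with 79.4 to 197 CPM in Lgr6 libraries, 58.3 to 109 in Lrig1 and 17.7 to 108 in Lgr5. Pelo stood at 3.82, 0.483 and 0.857 CPM in Pelo -/- Lrig1 and at 6.05 and 3.72 CPM in WT Lrig1, at 3.10, 4.94 and 4.20 CPM in Pelo -/- Lgr6 and at 4.12, 5.39 and 2.02 CPM in WT Lgr6, and at 11.8, 23.6 and 15.1 CPM in Pelo -/- Lgr5 and at 17.4, 5.90 and 17.3 CPM in WT Lgr5. The genotypes thus overlapped in each population, and Pelo counts were not lower in the libraries labelled Pelo -/- of Lgr6 and Lgr5 on average. Which part of Pelo is removed was not given, so these counts cannot check the labels, and Pelo -/- and WT are used throughout as labelled. WT Lgr6 replicate 2 stood apart from its group, with 24.6 CPM of Lgr5, 38.3 of Cd34 and 54.0 of Lhx2 against at most 1.73, 9.93 and 18.4 in the other WT Lgr6 libraries, and WT Lgr5 replicate 3 had the highest satellite-like share, and values without them stand beside the results they touch.

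Egr1 was the most abundant of the EGR genes in every library. Levels are TMM-scaled CPM, which relate a gene's counts to all counts of its library. Egr1 stood at 734, 790.3 and 537 CPM in Pelo -/- Lrig1 and at 849.9 and 1298 CPM in WT Lrig1. Among Lgr6 libraries there were 1309, 1506 and 1709 CPM in Pelo -/- against 1240.0, 276 and 1579.7 CPM in WT. Among Lgr5 libraries there were 1173, 660.1 and 142 CPM in Pelo -/- against 167, 179 and 71.2 CPM in WT. All 3 WT Lgr5 libraries were thus lower than every Lrig1 and Lgr6 library, while the Pelo -/- Lgr5 libraries spread from the level of WT Lgr5 to that of the other populations. By group means the order was Pelo -/- Lgr6 (1508 ± 199.8, SD), WT Lrig1 (1074 ± 317), WT Lgr6 (1032 ± 676), Pelo -/- Lrig1 (687 ± 133), Pelo -/- Lgr5 (658 ± 515) and WT Lgr5 (139 ± 59.0). The libraries of neighbours in that order overlapped, except those of Pelo -/- Lgr6 and WT Lrig1.

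Egr2 had the widest span between groups relative to its lowest group mean. It stood at 43.0, 14.7 and 0.859 CPM in the Pelo -/- Lgr5 libraries, against 0.811, 1.35 and 2.08 CPM in the WT Lgr5 libraries. So 2 of the Pelo -/- Lgr5 libraries were far above WT and the remaining one lay inside the WT range, with 16 counts against 12 to 38 counts in WT. In Lrig1 cells it stood at 32.4, 50.2 and 32.9 CPM in Pelo -/- and at 25.4 and 42.4 CPM in WT. Among Lgr6 libraries there were 25.2, 26.8 and 25.5 CPM in Pelo -/- against 68.6, 69.4 and 37.8 CPM in WT. By means the order was WT Lgr6 (58.6 ± 18.03), Pelo -/- Lrig1 (38.5 ± 10.1), WT Lrig1 (33.9 ± 12.02), Pelo -/- Lgr6 (25.8 ± 0.850), Pelo -/- Lgr5 (19.5 ± 21.5) and WT Lgr5 (1.41 ± 0.636), and the libraries of every pair of neighbours overlapped. Egr3 was close to absent, with 0 to 17 counts per library, and means of 0.0783 CPM in WT Lrig1 to 0.884 CPM in WT Lgr5.

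Among the NR4A genes Nr4a1 was the most abundant in every library. It stood at 63.4, 95.8 and 42.1 CPM in Pelo -/- Lrig1 and at 103 and 152 CPM in WT Lrig1. Among Lgr6 libraries there were 208, 277 and 248 CPM in Pelo -/- against 182, 54.9 and 264 CPM in WT. Among Lgr5 libraries there were 172, 81.6 and 49.3 CPM in Pelo -/- against 28.5, 39.5 and 34.4 CPM in WT. The Pelo -/- libraries were all below WT in Lrig1 and all above WT in Lgr5, and they overlapped WT in Lgr6. The order by means was Pelo -/- Lgr6 (244 ± 34.7), WT Lgr6 (167 ± 105), WT Lrig1 (127 ± 34.5), Pelo -/- Lgr5 (101 ± 63.4), Pelo -/- Lrig1 (67.1 ± 27.0) and WT Lgr5 (34.2 ± 5.51), and of the neighbours only Pelo -/- Lrig1 and WT Lgr5 did not overlap. Nr4a2 ran from 1.61 CPM in WT Lgr6 replicate 2 to 44.7 CPM in WT Lgr6 replicate 1, with group means of 9.64 (WT Lgr5) to 22.3 CPM (WT Lgr6). Nr4a3 was low throughout, with group means of 2.78 (WT Lgr5) to 8.31 CPM (Pelo -/- Lgr6).

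Dusp1, the MAP kinase phosphatase, stood at 1153, 1091 and 675 CPM in Pelo -/- Lrig1 and at 1504 and 1353 CPM in WT Lrig1. Among Lgr6 libraries there were 1386, 930.2 and 1319.5 CPM in Pelo -/- against 909.6, 374 and 1420.2 CPM in WT. Among Lgr5 libraries there were 1055, 612 and 264 CPM in Pelo -/- against 306, 205 and 123 CPM in WT. As for Egr1, the WT Lgr5 libraries were lower than every Lrig1 and Lgr6 library. Means ran from 1428 ± 107 CPM in WT Lrig1 over Pelo -/- Lgr6 (1212 ± 246), Pelo -/- Lrig1 (973 ± 259.8), WT Lgr6 (901 ± 523) and Pelo -/- Lgr5 (644 ± 397) to WT Lgr5 (211 ± 91.2), and all neighbours overlapped. Dusp1 shares 11 exon bases with Ergic1 on the other strand in GENCODE M21, and whether reads were counted by strand was not given.

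Btg2, the antiproliferative gene, stood at 141, 242 and 67.3 CPM in Pelo -/- Lrig1 and at 221 and 212 CPM in WT Lrig1. Among Lgr6 libraries there were 189, 226 and 204 CPM in Pelo -/- against 309, 97.2 and 283 CPM in WT. Among Lgr5 libraries there were 109, 73.2 and 58.7 CPM in Pelo -/- against 19.3, 37.0 and 41.7 CPM in WT, so that the genotypes did not overlap there.

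Ier2 held 108, 77.6 and 42.1 CPM in Pelo -/- Lrig1 libraries and 73.7 and 107 CPM in WT Lrig1, 78.2, 84.9 and 131 CPM in Pelo -/- Lgr6 and 94.4, 53.5 and 173 CPM in WT Lgr6. In Lgr5 it held 132, 56.6 and 40.8 CPM in Pelo -/- and 42.7, 33.4 and 12.9 CPM in WT. WT Lgr5 was again at the low end, but its highest library lay just inside the range of Pelo -/- Lrig1 and of Pelo -/- Lgr5. Ier3 held 18.6, 32.0 and 13.005 CPM in Pelo -/- Lrig1 and 33.6 and 16.7 CPM in WT Lrig1, 80.2, 92.4 and 60.7 CPM in Pelo -/- Lgr6 and 56.3, 26.4 and 79.3 CPM in WT Lgr6. In Lgr5 it held 56.8, 44.7 and 16.8 CPM in Pelo -/- and 8.86, 17.9 and 0.109 CPM in WT, the last resting on 2 counts. Ier3 was thus highest in Lgr6 sorts by group means, at 77.7 ± 16.0 CPM in Pelo -/- Lgr6. WT Lgr5 had the lowest mean of 9 of the 10 genes and the highest of the other one, Egr3.

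**Figure D1:**
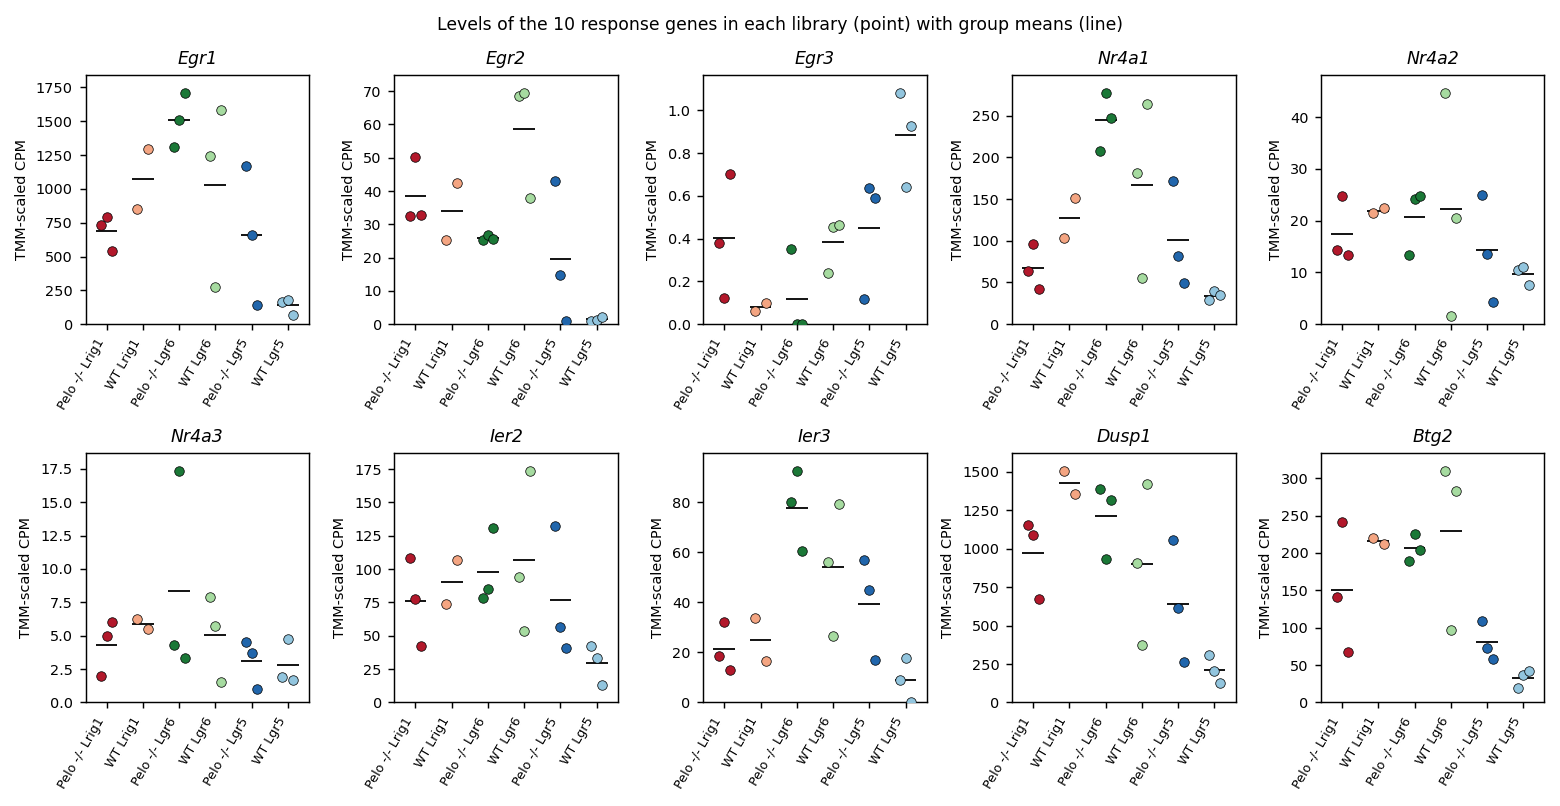
Level of each response gene in every library (points, TMM-scaled CPM on a linear axis of its own per panel) with the mean of each group (line). WT Lgr5 libraries sit at or near the bottom of the panels of Egr1, Egr2, Nr4a1, Dusp1 and Btg2, and the 3 Pelo -/- Lgr5 libraries are spread out, for Egr2 between 0.859 and 43.0 CPM.

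Per kilobase of the longest basic coding transcript, which allows levels to be compared between genes, Dusp1 ranked 1 and Egr1 ranked 2 in each of the 6 groups. In WT Lrig1 they reached 718 and 239.5 CPM per kb on average, and in WT Lgr5 106 and 31.0 CPM per kb. Egr3 ranked 10 everywhere. Egr2 ranked 7 in 5 groups, with 6.58 CPM per kb in Pelo -/- Lgr5, and 9 in WT Lgr5, with 0.476 CPM per kb.

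Because several of the genes differed between the same groups, their promoters are shown with the sites through which immediate early genes are known to respond. Sequences are RefSeq's on GRCm38.p6, of up to 250 bases before the annotated start, and 7 of the 10 genes were matched. Egr1, Egr3 and Ier2 were not matched, so their sites were not read. Egr2 has 5 annotated windows, of which 3 overlapping ones hold the same matches at different distances from their starts, and the most upstream of these is given. A separate Egr2 window, not shown, holds a different CArG box and no half-site. Capitals mark a CRE (TGACGTCA, bound by CREB proteins), its half-site TGACG on either strand (written CGTCA on the other), or a CArG box, the site of SRF. The window of Dusp1 is cut to 203 bases at the first exon base in GENCODE. The 4 shown belong to Egr2 (chr10:67537619-67537868, plus strand), Nr4a1 (chr15:101266596-101266845, plus strand), Dusp1 (chr17:26508520-26508722, minus strand) and Btg2 (chr1:134079156-134079405, minus strand).
Egr2: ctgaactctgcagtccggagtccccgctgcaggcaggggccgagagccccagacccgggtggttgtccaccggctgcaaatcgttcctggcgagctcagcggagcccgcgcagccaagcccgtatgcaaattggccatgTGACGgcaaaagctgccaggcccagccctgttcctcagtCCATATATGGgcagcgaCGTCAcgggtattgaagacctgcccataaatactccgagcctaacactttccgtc
Nr4a1: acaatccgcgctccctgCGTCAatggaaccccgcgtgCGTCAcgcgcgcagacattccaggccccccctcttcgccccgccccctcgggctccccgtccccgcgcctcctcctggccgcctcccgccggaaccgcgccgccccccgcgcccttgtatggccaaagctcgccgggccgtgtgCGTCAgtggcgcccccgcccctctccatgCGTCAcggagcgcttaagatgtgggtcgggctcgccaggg
Dusp1: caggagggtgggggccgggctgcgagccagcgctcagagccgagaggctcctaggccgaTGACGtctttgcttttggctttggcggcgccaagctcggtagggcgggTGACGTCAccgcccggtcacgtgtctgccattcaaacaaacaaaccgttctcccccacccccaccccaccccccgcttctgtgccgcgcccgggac
Btg2: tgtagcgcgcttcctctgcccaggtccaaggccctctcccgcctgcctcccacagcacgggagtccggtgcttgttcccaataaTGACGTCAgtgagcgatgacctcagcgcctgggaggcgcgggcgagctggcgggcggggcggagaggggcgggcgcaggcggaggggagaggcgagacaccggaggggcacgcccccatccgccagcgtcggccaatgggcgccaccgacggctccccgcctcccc
The Egr2 window held a CArG box and 2 half-sites, the Nr4a1 window 4 half-sites, the Dusp1 window a CRE and 1 further half-site, and the Btg2 window a CRE. Across the matched genes, 6 of 7 held the half-site (a CRE holds one on each strand and counts as such), against 19.8% of 27025 genes with a window of the same length. The whole CRE was in 2 of 7, against 1.77% of genes, and the CArG box in 1 of 7, against 1.62%. A gene counted as holding a site if any of its windows did, and Egr2 had 5 windows. The EGR site GCGTGGGCG and the NBRE AAAGGTCA, the site of NR4A monomers, were searched on both strands too, and no matched member held either, against 0.622% and 1.55% of genes. These matches describe letters in the window and are no measure of binding.

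In control mice, WT Lrig1 cells had more Egr1, Nr4a1, Dusp1 and Btg2 than WT Lgr5 cells. Egr1 averaged 1074 ± 317 CPM in WT Lrig1 and 139 ± 59.0 CPM in WT Lgr5 (SD, n = 2 and 3), a log2 fold change of 2.95 ± 0.65 (SE; edgeR quasi-likelihood test, Benjamini-Hochberg adjusted p = 0.00391). Dusp1 was higher by 2.76 ± 0.52 (edgeR adjusted p = 0.000692), Btg2 by 2.73 ± 0.50 (edgeR adjusted p = 0.000484) and Nr4a1 by 1.90 ± 0.52 (edgeR adjusted p = 0.0165). Thus 4 of the 9 members tested were called higher and 0 lower, where 9.09% of all 30405 genes were called higher and 11.1% in either direction. Ier2 (1.60 ± 0.55, edgeR adjusted p = 0.0614), Ier3, Nr4a2, Nr4a3 and Egr3 did not pass. Egr2 had a log2 fold change of 4.57 ± 0.85 and is given without a test, since these WT Lgr5 libraries also enter the contrast for which it was picked. All libraries of WT Lrig1 lay above all of WT Lgr5 for 8 of the 10 genes, Egr2 included, as for 19.7% of genes. Egr3 held 3 counts in all in WT Lrig1 against 43 in WT Lgr5, a ratio of 0.0911 (exact 95% interval 0.0181 to 0.285, counting error only), and DESeq2 called it lower (DESeq2 adjusted p = 0.0332) where edgeR did not (0.151). In these bulk samples fewer cells that express a gene and less RNA of it per cell cannot be told apart.

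WT Lgr6 cells were higher than WT Lgr5 cells in the same 4 genes and in Ier2. Egr1 averaged 1032 ± 676 CPM in WT Lgr6, against 139 ± 59.0 CPM in WT Lgr5 (n = 3 each), a log2 fold change of 2.89 ± 0.62 (edgeR adjusted p = 0.00249). Btg2 was higher by 2.81 ± 0.47 (edgeR adjusted p = 0.000164), Nr4a1 by 2.29 ± 0.49 (edgeR adjusted p = 0.00201), Dusp1 by 2.09 ± 0.48 (edgeR adjusted p = 0.00371) and Ier2 by 1.85 ± 0.52 (edgeR adjusted p = 0.0165). That makes 5 of 9 tested called higher and 0 lower, with 10.6% of all genes called higher and 12.2% in either direction. Ier3 narrowly missed (2.59 ± 0.87, edgeR adjusted p = 0.0576), and Egr2 had a log2 fold change of 5.36 ± 0.85, again without a test. For 7 of the 10 genes every WT Lgr6 library lay above every WT Lgr5 library, as for 17.2% of genes. Both comparisons share the WT Lgr5 libraries with each other and with the contrast that picked Egr2, so they are not independent of it. Between WT Lrig1 and WT Lgr6, 0 members and 0 of 30405 genes were called by edgeR (0%), 0 members and 4.67% of genes had an unadjusted p under 0.05, DESeq2 called 52 genes and limma-voom 0, none of them members. The median log2 fold change of the 10 was -0.17, and -0.56 without WT Lgr6 replicate 2.

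Some of these calls rested on 1 library. Without WT Lrig1 replicate 2 only Dusp1 and Btg2 kept their call against WT Lgr5 (Egr1 edgeR adjusted p = 0.118, Nr4a1 0.342), and Nr4a1 also missed without WT Lgr5 replicate 1 (0.0621) or 3 (0.0803), while Ier2 passed without WT Lgr5 replicate 1 (0.0460). Without WT Lgr6 replicate 3 only Egr1 (edgeR adjusted p = 0.0435, log2 fold change 2.24) and Btg2 kept theirs (Nr4a1 edgeR adjusted p = 0.105, Dusp1 0.145, Ier2 0.327). Without WT Lgr5 replicate 3 Dusp1 (edgeR adjusted p = 0.0656) and Ier2 (0.149) missed, and Ier2 missed without WT Lgr5 replicate 2 (0.0650). Ier3 passed without WT Lgr5 replicate 2 (edgeR adjusted p = 0.0188) or WT Lgr6 replicate 2 (0.0446). With both libraries that stood apart left out, a choice made after seeing the data, Egr1, Nr4a1, Dusp1 and Btg2 were called in both comparisons, and in WT Lgr6 against WT Lgr5 Ier3 was called but Ier2 was not. Over all genes the median log2 fold change stood at -0.99 in WT Lrig1 against WT Lgr5 and -0.49 in WT Lgr6 against WT Lgr5, and RLE in place of TMM size factors moved it to -1.36 and -0.996. The medians of the 10 members, Egr2 included, were 1.75 and 2.19 with TMM and 1.47 and 1.83 with RLE. The part of scaling in these differences was not tested. A filter at a mean of 5 CPM, applied before scaling, lowered the log2 fold change of Btg2 to 1.84 and 1.90 and that of Egr1 to 2.24 and 2.14 in the 2 comparisons, with both still called. Under it 3 and 4 members were called, beside 1750 and 1941 of 11061 genes called higher, a larger share than among all genes tested.

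Other differences between the sorts ran beside these. Krt14 and Krt5, keratins of basal cells, were among 4 of 5 basal markers called higher in WT Lrig1 and in WT Lgr6 than in WT Lgr5, and the summed level of the 5 was 11838 to 16373 CPM in WT Lrig1, 11333 to 19101 CPM in WT Lgr6, against 1746 to 3605 CPM in WT Lgr5. Of 6 bulge markers 2 (Lhx2 and Sox9) were called lower in WT Lrig1 and 4 in WT Lgr6, where Cd34 and Lgr5 joined them. Fold changes of the bulge markers were negative for 4 of the 6 and positive for 2 in each comparison, with medians of -2.43 and -2.86. Their summed level was not lower, but most of it was Krt15 in every WT library. The sum was 6377 to 8000 CPM in WT Lrig1, 5791 to 8553 CPM in WT Lgr6 and 4576 to 6212 CPM in WT Lgr5. Krt15 alone made up 6128 to 7722 CPM (WT Lrig1), 5565 to 8120 CPM (WT Lgr6) and 2840 to 4131 CPM (WT Lgr5). Of the 4 markers with negative fold changes, mean Lhx2 was 26.1 CPM (WT Lrig1), 28.5 CPM (WT Lgr6) and 505 CPM (WT Lgr5). Mean Sox9, in the same order, was 142, 163 and 649 CPM. Leukocyte markers summed to 41.9 to 128 CPM in WT Lrig1 and 128 to 379 CPM in WT Lgr6 against 5.58 to 17.3 CPM in WT Lgr5, with Cd74 the only 1 of 9 called higher and Lyz2 at 0 in WT Lrig1. Without Cd74 they summed to 5.22 to 6.47 CPM in WT Lrig1 and 3.73 to 48.4 CPM in WT Lgr6 against 4.999 to 16.2 CPM in WT Lgr5, and fold changes of 6 of the 9 were negative in WT Lrig1 against WT Lgr5 (median -1.95) and of 3 in WT Lgr6 against WT Lgr5 (0.91). Melanocyte markers summed to 11.99 to 33.9 CPM in WT Lrig1, 20.1 to 30.8 CPM in WT Lgr6, against 51.5 to 118 CPM in WT Lgr5, with Mitf the only 1 of 5 called lower and Mlana at 0 in WT Lrig1. Fibroblast markers summed to 2.08 to 4.26, 1.86 to 12.1 and 31.7 to 53.3 CPM in the same order, with Col1a2 the only 1 of 5 called lower and Dcn at 0 in WT Lrig1, and endothelial markers to 2.42 to 4.08, 1.55 to 8.11 and 6.92 to 16.8 CPM, with 0 of 4 called. Their part in the differences of the response genes, and that of the satellite-like share, was not tested.

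**Figure D2:**
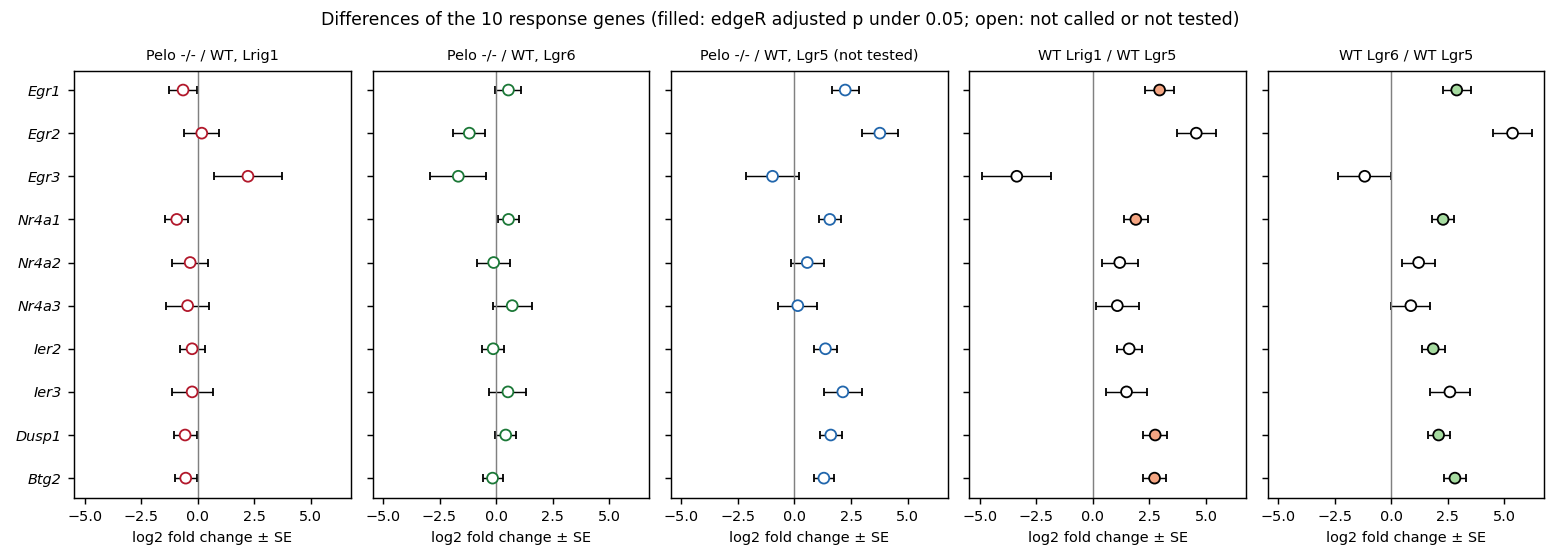
Log2 fold changes (points) with standard errors (bars) of the 10 genes in 5 comparisons; filled points had an edgeR adjusted p under 0.05, open ones did not or were not tested. Filled points are at 1.90 to 2.95 in WT Lrig1 / WT Lgr5 and at 1.85 to 2.89 in WT Lgr6 / WT Lgr5, and none is filled in Pelo -/- / WT of Lrig1 and Lgr6. The fitted values of Egr3 rest on 0 to 17 counts per library.

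In Lrig1 cells none of these genes was called between Pelo -/- and WT. Egr1 averaged 687 ± 133 CPM in Pelo -/- and 1074 ± 317 CPM in WT (n = 3 and 2; log2 fold change -0.64 ± 0.64, edgeR adjusted p = 1). Egr2 averaged 38.5 ± 10.1 CPM in Pelo -/- and 33.9 ± 12.02 CPM in WT (0.18 ± 0.78, edgeR adjusted p = 1), and its direction turned without Pelo -/- Lrig1 replicate 2 (-0.06) or WT Lrig1 replicate 1 (-0.21). Nr4a1 had a log2 fold change of -0.92 ± 0.52 (edgeR adjusted p = 1, unadjusted 0.0868). The fold changes were negative for 8 of the 10 genes, as for 50.8% of all genes, and their median was -0.39 against -0.02 over all genes. Every Pelo -/- library lay below every WT library for Egr1, Nr4a1 and Dusp1, as for 10.7% of genes, and above for Egr3, as for 8.17%. In edgeR 0 members were called, as were 0% of all genes, and 0 members had an unadjusted p under 0.05, as did 3.64% of genes. DESeq2 called 33 genes and limma-voom 0, with no member among them. Egr3 held 18 counts in all in Pelo -/- Lrig1 against 3 in WT Lrig1, a ratio of 4.69 (exact 95% interval 1.37 to 24.9, counting error only). With the spread between libraries included, its log2 fold change was 2.23 ± 1.49 (edgeR unadjusted p = 0.148).

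In Lgr6 cells no member was called either (0% of genes in edgeR), none had an unadjusted p under 0.05 (3.88% of genes), and DESeq2 with 18 genes and limma-voom with 0 called no member. Egr1 averaged 1508 ± 199.8 CPM in Pelo -/- and 1032 ± 676 CPM in WT (n = 3 each; log2 fold change 0.55 ± 0.58, edgeR adjusted p = 1), and Nr4a1 had 0.55 ± 0.47 (edgeR adjusted p = 1). Egr2 averaged 25.8 ± 0.850 CPM in Pelo -/- and 58.6 ± 18.03 CPM in WT (-1.18 ± 0.71, edgeR adjusted p = 1), and all 3 Pelo -/- libraries lay below the WT ones, as for 5.74% of genes. Fold changes were positive for 5 of the 10 genes, as for 34.8% of all genes, and negative for 5, as for 65%. Egr3 held 6 counts in all in Pelo -/- Lgr6, every one in replicate 1, against 22 in WT Lgr6. That is a ratio of 0.294 (exact 95% interval 0.0975 to 0.747, counting error only), opposite in direction to Lrig1 cells. Without WT Lgr6 replicate 2, the library with the low Egr1 and Nr4a1 values, the log2 fold changes were 0.10 for Egr1, 0.14 for Nr4a1 and -1.04 for Egr2, and the median of the 10 turned to -0.19, against 0.16 with it. The difference of the Pelo effect between Lgr6 and Lrig1 cells was 1.47 ± 0.70 for Nr4a1 (unadjusted p = 0.0456, edgeR adjusted p = 1.00), and 1.07 without WT Lgr6 replicate 2, and 0 members were called (0% of genes). That was the only 1 of 10 genes with an unadjusted p under 0.05, as were 4.2% of genes, and DESeq2 (55 genes) and limma-voom (0 genes) called no member.

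In Lgr5 cells the Pelo contrast is the one for which Egr2 was picked, so its values are a description without a test. Egr2 averaged 19.5 ± 21.5 CPM in Pelo -/- and 1.41 ± 0.636 CPM in WT (n = 3 each), a log2 fold change of 3.77 ± 0.80. Egr1 had 2.24 ± 0.60, Ier3 2.14 ± 0.85, Dusp1 1.61 ± 0.47, Nr4a1 1.56 ± 0.48, Ier2 1.37 ± 0.51 and Btg2 1.30 ± 0.45. Nr4a2 (0.57 ± 0.73) and Nr4a3 (0.15 ± 0.86) had standard errors larger than their fold changes. Egr3 held 22 counts in all in Pelo -/- Lgr5 against 43 in WT Lgr5, a ratio of 0.501. Its fitted log2 fold change was -0.97 ± 1.16. The fold changes were positive for 9 of the 10 genes and for 43.9% of all genes, and their median was 1.47 against -0.14 over all genes. Every Pelo -/- library lay above every WT library for 2 of them, Nr4a1 and Btg2, as for 3.8% of genes, and below for Egr3, as for 4.41%. In the whole table edgeR called 6 genes (0.0197%). That count depended on the processing, with 0 genes from only the groups compared and 2 with the replicate number as a block. It was 80 with no filter on low counts and 20 without Pelo -/- Lgr5 replicate 3.

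The 3 Pelo -/- Lgr5 libraries differed widely from one another. The mean log2 CPM of the 10 genes was 5.75, 5.17 and 3.79 in Pelo -/- Lgr5 and 3.79, 4.08 and 3.01 in WT Lgr5, so that replicate 3 of Pelo -/- Lgr5 lay within the WT range. In the same order of libraries the satellite-like share was 1.72%, 6.45% and 9.42% in Pelo -/- and 10.2%, 4.08% and 25.4% in WT, and the mitochondrial share was 15.3%, 7.18% and 3.82% in Pelo -/- and 12.01%, 6.15% and 3.69% in WT. Melanocyte markers summed to 283, 136 and 137 CPM in Pelo -/- and to 51.5, 118 and 97.2 CPM in WT. Neither genotype had any of the 5 melanocyte markers at 0 throughout. The part of these measures in the result was not tested. Without Pelo -/- Lgr5 replicate 1 the log2 fold changes were 2.44 for Egr2, 1.53 for Egr1, 0.94 for Nr4a1, 0.71 for Ier2 and -0.11 for Nr4a2, and the median of the 10 was 0.97. Without WT Lgr5 replicate 2 Ier3 had 3.21 and Nr4a3 0.79, and without WT Lgr5 replicate 3 Ier3 had 1.55.

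**Figure D3:**
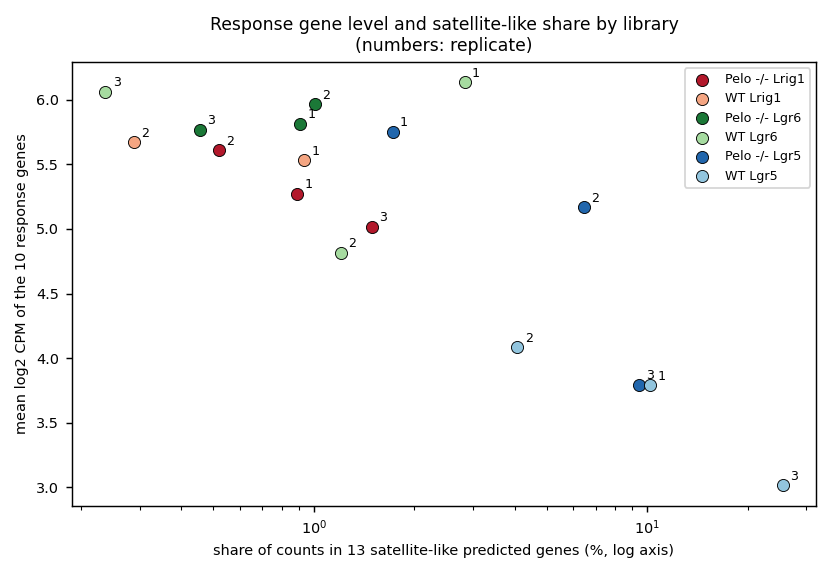
Mean log2 CPM of the 10 response genes (y axis) against the share of counts in 13 satellite-like predicted genes (x axis, percent, log scale) in each of the 17 libraries, numbered by replicate. The Lgr5 libraries spread from 5.75 at a share of 1.72% (Pelo -/- replicate 1) to 3.01 at 25.4% (WT replicate 3), and the 11 others lie at 4.82 or above with shares of at most 2.83%.

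Among Pelo -/- libraries the sorts did not differ in a called member. Between Pelo -/- Lrig1 and Pelo -/- Lgr5, 0 of 9 members tested were called by edgeR, DESeq2 or limma-voom and 0 had an unadjusted p under 0.05, with 7.85% of genes called by edgeR and 23.3% under the unadjusted threshold. Between Pelo -/- Lgr6 and Pelo -/- Lgr5, edgeR called 0 of 9 and DESeq2 0, with 9.95% of genes called by edgeR. There Btg2 averaged 206 ± 18.4 CPM in Pelo -/- Lgr6 and 80.4 ± 26.1 CPM in Pelo -/- Lgr5 (log2 fold change 1.36 ± 0.45, edgeR adjusted p = 0.0554). Nr4a1 averaged 244 ± 34.7 CPM in Pelo -/- Lgr6 and 101 ± 63.4 CPM in Pelo -/- Lgr5 (1.28 ± 0.48, edgeR adjusted p = 0.0938). These 2 were the members under an unadjusted p of 0.05, as were 24.6% of genes, and for 4 of the 10 genes every Pelo -/- Lgr6 library lay above every Pelo -/- Lgr5 library, as for 15.5%. Both passed without Pelo -/- Lgr5 replicate 1 (edgeR adjusted p = 0.0360 and 0.0152) and in limma-voom, which also called Egr1. Whether the sorts differ less in Pelo -/- than in WT mice rests on the contrast that picked Egr2 and was not tested.

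Between Pelo -/- Lrig1 and Pelo -/- Lgr6 cells, Nr4a1 had the smallest p of the 10 genes, with 67.1 ± 27.0 CPM in Lrig1 and 244 ± 34.7 CPM in Lgr6 (n = 3 each) and no overlap, as for 5.71% of genes that were lower in Lrig1 (log2 fold change -1.86 ± 0.48, unadjusted p = 0.000728, edgeR adjusted p = 0.824). Ier3 averaged 21.2 ± 9.78 CPM in Lrig1 and 77.7 ± 16.0 CPM in Lgr6 (-1.87 ± 0.84, unadjusted p = 0.0381, edgeR adjusted p = 1). These were 2 of 10 members with an unadjusted p under 0.05, as were 4.2% of genes. No member was called by edgeR (0% of genes), DESeq2 (63 genes) or limma-voom (0 genes).

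Across the 17 libraries the levels of the genes went up and down together, apart from Egr3. For the 36 pairs without Egr3, Pearson correlations of log2 CPM were all positive, with a median of 0.70 (0.22 to 0.95), and after removal of the group means the median was 0.51 (-0.12 to 0.91). Egr3, at its few counts, correlated negatively with all the others, down to -0.76 with Nr4a1. Egr1 and Dusp1 were the closest pair (0.95, and 0.91 within groups), and Egr1 and Nr4a1 had 0.90 (0.86 within groups). Egr2 had within-group correlations of 0.57 with Egr1, 0.48 with Nr4a1, 0.42 with Dusp1 and 0.27 with Ier2. In WT Lgr6 replicate 2, for example, Egr1, Nr4a1, Nr4a2, Dusp1, Btg2, Ier2 and Ier3 were all the lowest of their group and Egr2, at 69.4 CPM, was the highest. Libraries share depth and scaling in each such correlation, which are descriptions. Among 8874 other genes that averaged 3 or more on the log2 CPM scale, those most alike to the mean of the 10 over all 17 libraries were Atf3 (Pearson 0.95), a stress-induced transcription factor, the heat shock cochaperone gene Dnajb1 (0.93), Minos1 (0.92), Atp6v1e1 (0.92), a subunit of the vacuolar proton pump, and Zfp36 (0.92), which promotes decay of messenger RNAs with AU-rich elements. Those most alike to Egr2 alone were Gm13552 (0.96), Gm15616 (0.92), Pcca (0.92), Pgd (0.91) and Mrps36 (0.91).

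Other genes of the response were read from lists chosen for this purpose. Of 7 Fos and Jun genes, 4 were called higher in WT Lrig1 than in WT Lgr5 and 5 in WT Lgr6 than in WT Lgr5, with medians of 1.58 and 1.55 (log2) and none called lower, where 9.09% and 10.6% of all genes were called higher. Fosl1 averaged 19.5 ± 4.47 CPM in WT Lrig1 and 1.01 ± 0.500 CPM in WT Lgr5 (4.26 ± 0.80, edgeR adjusted p = 0.000658), and Fosb averaged 488 ± 54.6 CPM in WT Lrig1 and 58.1 ± 37.6 CPM in WT Lgr5 (3.07 ± 0.63, edgeR adjusted p = 0.00207). Of 40 other immediate early genes, 15 were called higher and 2 lower in WT Lrig1, and 15 higher and 3 lower in WT Lgr6, each against WT Lgr5, with medians of 1.09 and 1.27, beside medians of -0.99 and -0.49 over all genes. Higher in both were the kinase gene Pim1 (3.82 ± 0.50 and 3.22 ± 0.46) and Zfp36 (3.15 ± 0.51 and 2.97 ± 0.48), and lower in both were the matricellular gene Ccn2 (-2.38 ± 0.45 and -3.30 ± 0.40) and the CBP/p300 partner gene Cited2 (-1.95 ± 0.39 and -2.47 ± 0.35). Their edgeR adjusted p lay between 3.45e-06 and 0.00130.

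The lists of signalling parts stand beside 11.1% of all genes called in either direction in WT Lrig1 against WT Lgr5 and 12.2% in WT Lgr6 against WT Lgr5. Of 28 kinases and transcription factors upstream, 1 was called in WT Lrig1 against WT Lgr5, the ERK target kinase gene Rps6ka1 (2.26 ± 0.56, edgeR adjusted p = 0.00810), and 2 in WT Lgr6 against WT Lgr5, Rps6ka1 (1.73 ± 0.52, edgeR adjusted p = 0.0270) and the ERK gene Mapk3 (2.73 ± 0.57, edgeR adjusted p = 0.00152), all higher, with medians of 0.22 and 0.32. Of 17 feedback inhibitors and corepressors, 3 were called higher in each of these comparisons, namely the EGR corepressor gene Nab1, the EGF receptor inhibitor gene Errfi1 and the ERK phosphatase gene Dusp7, and 1, Spry2, was lower in WT Lgr6 (-1.29 ± 0.40, edgeR adjusted p = 0.0334), with medians of -0.07 and -0.48. Of 12 partners of NR4A and EGR proteins 3 were higher in WT Lrig1, namely Btg1, Nab1 and Rxra, and 4 in WT Lgr6, with Cnot8 in addition, with medians of 0.15 and 0.46. Btg1 is also in the list of other immediate early genes and Nab1 in that of corepressors. In Pelo -/- against WT no gene of these lists was called in Lrig1 or Lgr6 cells, where 0% of all genes were.

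In Lgr5 cells, where values stand without a test, fold changes of Pelo -/- against WT were positive for 6 of 7 Fos and Jun genes (median 1.34) and for 36 of 40 other immediate early genes (median 0.72). They were positive for 17 of 28 upstream genes (0.12), 11 of 17 feedback inhibitors and corepressors (0.23) and 6 of 12 partners (0.19), beside 43.9% of all genes (-0.14). The summed level of the Fos and Jun genes was 6783, 4249 and 1910.3 CPM in Pelo -/- Lgr5 and 1759, 1756 and 702 CPM in WT Lgr5. Most of it was Fos, at 5524, 3470 and 1415 CPM in Pelo -/- and 1307, 1347 and 494 CPM in WT. For Fos, Fosb, Fosl2 and Junb every Pelo -/- library lay above every WT library, as for 3.8% of all genes. Jun, Jund and Fosl1 overlapped between the genotypes.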

How the data were processed

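Epidermal cells of 6 groups were sorted and sequenced with a full-length protocol (Picelli, per the labels). The authors deposited whole-number counts per gene for 17 libraries, and STAR, edgeR and the builds GRCm38 and mm10 appear in the submitters' processing notes. Counter, annotation and strand use were not given in these sources. Symbols came from GENCODE M21 on GRCm38. Groups and replicate numbers came from the titles, and nothing says that replicates are separate animals, so p-values measure the spread between these samples.

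All libraries entered 1 fit in edgeR 4.0.16 (R 4.3.3; quasi-likelihood, robust, TMM, 1 coefficient per group). filterByExpr (minimum count 10, minimum total 15) left 30405 of 48820 genes, over which p-values were adjusted by Benjamini-Hochberg within each of 9 tested comparisons. A gene was called at an adjusted p under 0.05. Standard errors were taken as the absolute log2 fold change divided by √F. CPM are TMM-scaled. On simulated counts of WT Lgr6 against WT Lgr5, with 200 of 30405 genes changed by 3 (log2), the fit called 162 of them and 10 others. The changed genes were drawn from those with a mean over 5 CPM, and all others had the same mean in all groups. Dispersions were estimated from these data. The outcome thus does not cover low genes, or sorts that differ in many genes as these do. Chi-square per degree of freedom was at least 38.5 for each of the 16 pairs of replicates within a group, so none was a copy of another in its group. Libraries of different groups were not compared in this way. Total counts of 9647507 to 28098841 limit what low genes such as Egr3 can show.

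The members, lists and rules were chosen with earlier results of these data known. All 10 members were named, and of each other list up to 4 genes per direction with the smallest p among those called. The 5 genes most alike were named by Pearson correlation over all libraries. The 13 satellite-like genes were chosen after seeing the data. Alternatives were RLE size factors, no filter, a mean of at least 5 CPM, DESeq2 1.42.0, limma-voom 3.58.1, only the groups compared, the replicate number as a block, and each library left out.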

Additional observations from a re-analysis of the deposited data

Results flagged for a closer look

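For 2 genes the Pelo -/- libraries of one population all lay above WT while those of another all lay below. Of all genes, 10.7% lay wholly below and 8.17% wholly above WT in Lrig1, and 3.8% wholly above and 4.41% wholly below in Lgr5. The share of all genes with opposite directions in 2 populations was not counted, so these 2 are not set apart by it. Nr4a1 was above WT in every Pelo -/- Lgr5 library (172, 81.6 and 49.3 CPM in Pelo -/-, 28.5, 39.5 and 34.4 CPM in WT) and below WT in every Pelo -/- Lrig1 library (63.4, 95.8 and 42.1 CPM in Pelo -/-, 103 and 152 CPM in WT). Its log2 fold changes differed by 2.49 between Lgr5 and Lrig1 cells. Egr3 was above WT in every Pelo -/- Lrig1 library and below WT in every Pelo -/- Lgr5 library, and its fitted log2 fold changes differed by 3.20. That value rests on 18 counts in Pelo -/- Lrig1 and 3 in WT Lrig1, and on 22 in Pelo -/- Lgr5 and 43 in WT Lgr5. Neither difference was tested, since each includes the contrast that picked Egr2.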

How the results depend on the processing

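Fold changes were followed for 41 pairs of a member and a comparison, which gave 519 values under the alternatives. Of these 512 kept their sign and 7 did not, 17 lost a call and 16 gained one. Only the values given without a test were checked for a move beyond the spread between replicates, and 2 moved. That spread was the SD, over the Pelo -/- Lgr5 libraries, of the mean log2 CPM of the response genes. Of the sign changes 5 were in Pelo -/- against WT of Lgr5 cells, 4 of Nr4a3 and 1 of Nr4a2 (-0.11 without Pelo -/- Lgr5 replicate 1), and 2 were of Egr2 in Pelo -/- against WT of Lrig1 cells, -0.06 without Pelo -/- Lrig1 replicate 2 and -0.21 without WT Lrig1 replicate 1, within a range of -0.21 to 0.77 over the libraries left out. The 2 that moved were Egr2 (2.44 without Pelo -/- Lgr5 replicate 1) and Ier3 (3.21 without WT Lgr5 replicate 2) in Lgr5 cells. Leaving out each library in turn, 2 to 4 members were called in WT Lrig1 against WT Lgr5, 2 to 6 in WT Lgr6 against WT Lgr5 and 0 to 2 in Pelo -/- Lgr6 against Pelo -/- Lgr5, and the median in Pelo -/- against WT of Lgr5 cells was 0.97 to 1.78. In Pelo -/- Lgr6 against Pelo -/- Lgr5, 1 member was called with no filter, 3 by limma-voom and 1 with only the groups compared, against 0 in the full fit.

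In WT Lrig1 against WT Lgr5, Nr4a1 missed with RLE (adjusted p = 0.0673), with a mean of at least 5 CPM (0.120) and in DESeq2 (0.0559). Ier2 missed in WT Lgr6 against WT Lgr5 with RLE (0.0656), with a mean of at least 5 CPM (0.0692) and with only the groups compared (0.0702). The filter at 5 CPM, which dropped Egr3 and Nr4a3, also brought the median of all genes to -0.06 and -0.04 in these comparisons and lowered the fold changes, for example to 2.24 and 2.14 for Egr1 and to 1.84 and 1.90 for Btg2. Over all genes edgeR called 3369 in WT Lrig1 against WT Lgr5, 82.1% of them higher, and 3713 in WT Lgr6 against WT Lgr5, 87.2% higher. DESeq2 called 7396 (38.8% higher) and 6264 (48.6% higher), limma-voom 5076 (69.3%) and 4578 (82.2%), RLE gave 69.1% and 68.8%, and the filter at 5 CPM 55.3% and 52.9%. Without WT Lrig1 replicate 2 there were 1294 genes and without WT Lgr6 replicate 3 there were 1932. The cause of these shifts was not tested.

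With the replicate number as a block, 4 members were called in WT Lrig1 against WT Lgr5 and 6 in WT Lgr6 against WT Lgr5, where Ier3 was gained, and 0 in the other tested comparisons, and the block changed no other call. Same-numbered libraries correlated at -0.10 to 0.24 in 8 pairs, 2 of them over 0.1. These correlations used deviations from means of few libraries, which are tied to one another within a group. They therefore cannot decide whether the numbers pair the samples. Depth limits Egr3 most, with 0 to 17 counts per library.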
